A study of Mus musculus with 12 samples.

Results

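A pair of steps in the same tissue were compared in RNA-seq of mouse small-intestinal epithelium. The embryonic step runs from the epithelium at E12.5 to that at E14.5 (E, embryonic day). The adult step runs from Lgr5+ intestinal stem cells (ISC) to cells labelled enterocytes (AE), the absorptive cells of the gut. The quantity described here is the difference between the steps, (E14.5 − E12.5) − (AE − ISC), on the log2 scale, and above all the genes whose steps went in opposite directions or that moved in 1 step only. All 12 libraries of the series entered, 3 in each of 4 groups, and 15342 of the 23366 gene entries had enough counts to be tested.

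All mice were of a mixed C57BL/6 and CD1 strain. The E12.5 and E14.5 cells were sorted as living EpCAM+ CD31- CD45- cells from dissected embryonic small intestine, a gate for an epithelial surface protein and against an endothelial and a white-blood-cell one. At E12.5 each library came from a pool of 20 embryos, and the pool size at E14.5 is not given in the sources used here. The adults were Lgr5EGFP-Cre-ERT males at postnatal day 60, 1 gut per library. In these mice the Lgr5 gene drives a green fluorescent protein and an inducible Cre. ISC were the Lgr5-EGFP high cells, and AE were EpCAM+ CD31- CD45- cells of the same line, so that both adult groups carry the reporter and the embryonic groups are not stated to. The protocol describes a villus and a crypt fraction and does not state which of them gave the AE sort. The AE gate holds no enterocyte marker, so other epithelial cells can pass it, and AE stands for the label. No treatment is stated for any group. For all 6 embryonic libraries the age field names the other stage than the title. The titles were followed. If the age field were right, the sign of every embryonic step would turn, the 646 genes that rose and the 593 that fell by a log2 of at least 1 in both steps would be the opposite ones, and the 528 opposite genes described here would move together.

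The gut tube of the mouse embryo is lined by a dividing, largely undifferentiated epithelium, which around these days begins to fold into villi and to make its first differentiated cells. In the adult, stem cells at the crypt base divide under Wnt and Notch signalling, and their daughters leave the cycle and become absorptive enterocytes or secretory cells (goblet, Paneth, enteroendocrine and tuft cells). Both steps end in a more differentiated epithelium, but only the adult one starts from an established stem cell.

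In units of 1000000, gene counts per library ranged from 12.6 to 45.2. In the same unit, reads entered as aligned to several places averaged 1.99 in E12.5 and 2.14 in ISC, while every E14.5 and AE library has an entry of 0, so this feature of the files splits both steps the same way. Libraries of a group differed from each other by more than counting noise, and AE replicate 1 stood apart from the other AE libraries: its summed level over 36 mitosis genes was 3246 normalised CPM (counts scaled to a library of 1000000) against 1612 and 1926, and over 26 brush-border hydrolases 37378 CPM against 75907 and 70484, with 2247 to 3361 in ISC. Without it, 113 of the 133 genes chosen by rule for naming in a class were still in their class; Agmat, Samd5, Mylip, Mki67, Slc27a4, Sc4mol, Ccl9 and Cnn1 were among those that left. List counts that move by over 1.5 times without it are given beside the count. Summed mesenchymal and smooth-muscle markers (34 tested) stood at 1861 to 2091 CPM at E12.5, 753 to 929 at E14.5, 38.3 to 45.2 in ISC and 34.9 to 40.3 in AE, with Nkx2-3, Mfap4 and Myocd at 0 in both adult groups. Summed red-cell markers (7 tested) stood at 173 to 215 CPM at E12.5, 37.5 to 39.4 at E14.5, 12 to 17.1 in ISC and 4.57 to 5.71 in AE. Both sums fell along the embryonic step, as did the genes of the embryonic-fall classes. Taken singly, 82.4% of the mesenchymal markers rose in that step and 14.7% fell. Of the red-cell markers 42.9% rose and 28.6% fell. The part of these markers in the results of those classes was not tested. Summed Paneth-cell genes (22 tested) stood at 136 to 147 CPM at E12.5, 79.7 to 84.5 at E14.5, 2806 to 5121 in ISC and 5841 to 10158 in AE. Epcam, the surface protein of the sort, was found at 429 to 512, 834 to 875, 998 to 1096 and 1261 to 2051 CPM in E12.5, E14.5, ISC and AE. In bulk RNA a change in the number of cells of a type cannot be told apart from a change in RNA per cell. Nothing in the labels says that embryonic pools came from separate litters, so p-values measure the spread between these libraries.

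The sequences upstream of 4 genes are shown because each gene stands for a pattern described below: Mki67 and Pola1 for genes that fell in the adult step only, Krt20 for opposite steps and Areg for genes that rose in the embryonic step only. Each run is the 250 bases before the start site, 5′ to 3′ on the strand of the gene, from RefSeq on GRCm38.p6, a later build than the mm9 of the deposited counts. Capitals mark every match, on either strand, to the CCAAT box (CCAAT), the CHR element of cell-cycle genes (TTTGAA), the E2F site (TTTGGCGC or TTTCGCGC), the TATA box (TATAAA), the TCF/LEF core (CTTTGA) or the HNF4 site (CAAAGTCCA).
Mki67, chr7:135716380-135716629, minus strand: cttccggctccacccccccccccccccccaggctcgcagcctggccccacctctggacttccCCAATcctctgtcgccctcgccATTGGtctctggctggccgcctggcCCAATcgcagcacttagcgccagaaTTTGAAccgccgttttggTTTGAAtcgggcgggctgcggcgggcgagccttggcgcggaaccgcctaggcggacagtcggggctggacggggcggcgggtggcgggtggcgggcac
Pola1, chrX:93632156-93632405, minus strand: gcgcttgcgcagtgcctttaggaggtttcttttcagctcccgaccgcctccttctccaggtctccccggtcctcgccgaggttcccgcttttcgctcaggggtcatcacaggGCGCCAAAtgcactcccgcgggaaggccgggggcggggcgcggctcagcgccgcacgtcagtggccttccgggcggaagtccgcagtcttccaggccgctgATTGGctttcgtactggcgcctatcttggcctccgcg
Krt20, chr11:99438154-99438403, minus strand: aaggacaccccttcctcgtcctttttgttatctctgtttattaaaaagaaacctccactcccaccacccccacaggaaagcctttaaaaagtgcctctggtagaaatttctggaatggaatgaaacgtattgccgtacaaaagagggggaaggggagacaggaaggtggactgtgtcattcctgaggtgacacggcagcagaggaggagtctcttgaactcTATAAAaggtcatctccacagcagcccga
Areg, chr5:91139349-91139598, plus strand: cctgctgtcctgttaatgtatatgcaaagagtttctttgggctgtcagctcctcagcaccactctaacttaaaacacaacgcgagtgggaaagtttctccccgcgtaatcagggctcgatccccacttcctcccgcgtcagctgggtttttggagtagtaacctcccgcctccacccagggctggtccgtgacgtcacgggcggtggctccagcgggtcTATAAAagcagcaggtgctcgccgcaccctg
The Mki67 sequence holds 3 CCAAT boxes, 188, 166 and 141 bases before the start, and 2 CHR elements at 116 and 98. Pola1 holds 1 E2F match, 138 bases before the start, and a CCAAT box at 37, both on the other strand. Krt20 and Areg hold a TATA box 29 and 31 bases before the start. Over all 27025 promoters of the table the same window holds a CCAAT box in 34.5%, a CHR element in 16.3%, a TATA box in 13%, a TCF/LEF core in 14%, an E2F match in 0.673% and an HNF4 site in 0.381%. A match is a description of the letters and not evidence of a site in use.

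The difference between the steps was called for 8371 genes by edgeR's quasi-likelihood F test with Benjamini-Hochberg adjustment over all 15342 genes at 0.05, the test behind every adjusted p given here. It was higher for the embryonic step in 4506 genes (29.4%) and lower in 3865 (25.2%). With library totals and no scaling factor the split was 6876 against 2286, and the median of all genes moved by 0.52 on the log2 scale, so the direction of small differences depends on the scaling. In the embryonic step alone 3618 genes (23.6%) were higher and 3926 (25.6%) lower, and in the adult step 5002 (32.6%) were higher and 5395 (35.2%) lower. These shares are the background for every count of named genes below.

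A gene was put in an opposite class when each step was called with a log2 change of at least 1, the signs differed and the difference was called. There were 202 genes (1.32%) with an embryonic rise and an adult fall, and 326 (2.12%) with an embryonic fall and an adult rise. A gene was put in a one-step class when 1 step was called with a log2 change of at least 1, the other had an adjusted p of at least 0.05 and a log2 change under 0.5, and the difference was called. These classes held 183 genes (1.19%) for an embryonic rise only, 165 (1.08%) for an embryonic fall only, 888 (5.79%) for an adult rise only and 1213 (7.91%) for an adult fall only. The remaining 12365 genes had no class. A missed p with a small change does not show that a step is flat. The 95% interval of the step that was not called lay within a log2 change of 1 for 150, 96, 721 and 1114 genes of these 4 classes, in the same order.

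The limits of the classes are not gaps in the data. Of the opposite genes, 71 had a smaller step between 1 and 1.1 on the log2 scale, and a further 65 called genes with opposite signs had one between 0.9 and 1 and were left out. Syt14, with a smaller step of 1.003, lay just inside, and Cnnm1 just outside with 0.9997. Clstn2 lay just inside the embryonic one-step classes, with an adult log2 change of 0.499 in size. For the adult classes 4921536K21Rik lay just inside at 0.499 and Cenpe just outside at 0.501.

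**Figure D1:**
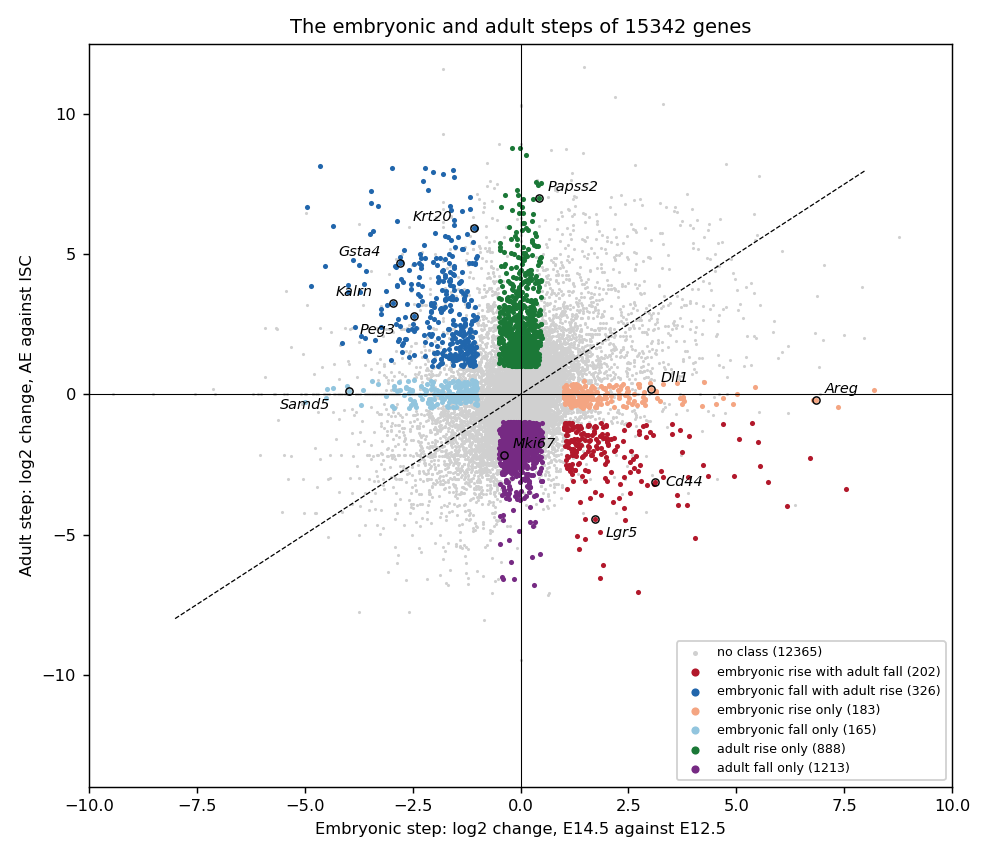
The embryonic step (x axis, log2 change of E14.5 against E12.5) and the adult step (y axis, log2 change of AE against ISC) of the 15342 genes tested, coloured by class, with the dashed line marking equal steps. Genes of the opposite classes fill the upper left (326) and lower right (202) corners, the adult one-step classes (888 and 1213) lie along the vertical axis, and the embryonic ones (183 and 165) along the horizontal axis.

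Genes of the crypt stem cell made up the clearest group among those that rose in the embryo and fell in the adult. Of 32 stem-cell genes tested, 9 (28.1%) were in this class, against 1.32% of all genes: Lgr5, Ascl2, Smoc2, Clca4, Axin2, Slc12a2, Aqp4, Esrrg and Nr2e3. Another 6 fell in the adult step only (Rnf43, Nkd1, Ephb3, Cdk6, Cdca7 and Soat1), and none was in any of the other 4 classes. All 32 fell in the adult step, while in the embryonic step 12 rose and 12 fell, so that the list's median was −0.01 for the embryonic and −2.74 for the adult step, against −0.02 and −0.05 for all genes. The list was drawn up from genes known to be high in these stem cells, so its adult direction is no independent evidence.

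Lgr5, the receptor for R-spondin that marks the stem cells, stood at 30.9, 21.5 and 21.9 CPM at E12.5, 78.5, 81.2 and 85.8 at E14.5, 498, 473 and 551 in ISC and 20.6, 26.9 and 22.5 in AE. The E14.5 libraries lay above all E12.5 libraries, and the AE libraries were as low as those of E12.5. It rose 3.3-fold in the embryo (log2 1.72 ± 0.14, SE) and was 21.8-fold lower in AE. ISC were gated on Lgr5-EGFP, so this fall is not independent of the sort. The part of the gate in its size was not tested. Ascl2, the Wnt-driven transcription factor that maintains stem-cell identity, stood at 3.3, 1.87 and 1.83 CPM at E12.5, 10.2, 10.6 and 10.6 at E14.5, 82.9, 112 and 148 in ISC and 8.31, 5.55 and 10.3 in AE. The groups of each step did not overlap. Its difference between steps was 5.98 ± 0.37 on the log2 scale (adjusted p = 4.1e-08).

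Smoc2, a secreted matrix protein of the crypt base, stood at 0.866, 4.04 and 0.404 CPM at E12.5, 15.5, 17.1 and 15.1 at E14.5, 256, 256 and 264 in ISC and 42.9, 38.5 and 34.4 in AE. E12.5 replicate 2 was several times above its group, and the 3 E14.5 libraries were all higher still. Clca4, a member of the calcium-activated chloride channel regulator family, stood at 6.61, 2.44 and 6.27 CPM at E12.5, 89.4, 95.8 and 106 at E14.5, 7553, 7390.3 and 9732 in ISC and 1726, 1136 and 1404 in AE. It rose 18.8-fold in the embryo and was 5.78-fold lower in AE, though its lowest AE library remained above every embryonic library. Its relatives Clca1 and Clca2 moved the same way, with differences between steps of 5.45 ± 0.27 and 6.28 ± 0.25. How much sequence these members of 1 family share could not be measured, so reads may have been split between them and each value is uncertain.

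Olfm4, another marker of the stem cells, was not in this class. It stood at 0.834, 0.666 and 2.97 CPM at E12.5, 2.37, 2.67 and 2.11 at E14.5, 5671, 5558 and 6000.4 in ISC and 641, 538 and 638 in AE. The embryonic groups overlapped and were low, and only the ISC and AE libraries were high. Its embryonic step missed the test (0.68 ± 0.37, adjusted p = 0.147), while its adult step fell by 3.24 ± 0.30.

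Among Wnt targets and receptors, 4 of 34 (11.8%) rose in the embryo and fell in the adult, namely Cd44, Myc, Lgr5 and Axin2. A further 3 did the opposite (Wnt11, Dkk3 and Nkd2; 1 without AE replicate 1 or with no scaling factor), 5 fell in the adult step only (Ccnd1, Fzd6, Apcdd1, Rnf43 and Nkd1), and Tcf7l1 fell in the embryonic step only (4 genes without AE replicate 1). The list thus did not move as 1 group: in the embryonic step 9 members rose and 17 fell.

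Cd44, the hyaluronan receptor and a Wnt target of the crypt, had the largest smaller step among genes of the class that reached 20 CPM in a group. It stood at 2.37, 1.24 and 1.69 CPM at E12.5, 16.6, 16.2 and 13.8 at E14.5, 453, 398 and 571 in ISC and 65.6, 40.6 and 54.5 in AE. Each step separated its groups completely, and the AE libraries remained above all embryonic ones. The rise was 8.64-fold (log2 3.11 ± 0.24) and the fall 8.82-fold (log2 -3.14 ± 0.20), which gave a difference of 6.25 ± 0.31 (adjusted p = 9.16e-09). Myc, the growth-promoting transcription factor, stood at 69, 39.1 and 38.9 CPM at E12.5, 205, 205 and 183 at E14.5, 324, 377 and 409 in ISC and 37.4, 50.8 and 43.5 in AE. Its AE libraries were back at about the level of E12.5.

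The Notch pathway, by which neighbouring cells choose between absorptive and secretory fates, was spread over several classes. Lfng, the enzyme that glycosylates Notch receptors, stood at 1.25, 1.24 and 1.47 CPM at E12.5, 5.08, 4.86 and 5.45 at E14.5, 12, 15.3 and 15.1 in ISC and 2.31, 1.06 and 1.71 in AE. It rose 3.86-fold in the embryo and was 7.91-fold lower in AE, with no overlap in either step. The ligands Dll1 and Dll4 rose in the embryonic step only. Dll1 stood at 2.05, 1.82 and 2.93 CPM at E12.5, 19, 18 and 19.1 at E14.5, 32.8, 31.8 and 34.1 in ISC and 33.4, 49.3 and 29.9 in AE. It rose 8.19-fold (log2 3.03 ± 0.21), while the adult libraries overlapped (0.19 ± 0.18, 95% interval -0.19 to 0.57). Dll4 rose 5.05-fold and changed by 0.32 ± 0.19 in the adult step, which missed the test. The target Hes1 fell in the adult step only, and left that class without ISC replicate 3 or any 1 of the AE libraries. The modulators Numb and Rfng rose in the adult step only, and neither did with no scaling factor. Over the whole list of 20 genes, 10 rose and 6 fell in the embryonic step, and 2 rose and 8 fell in the adult step.

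Neurog3, the transcription factor that starts the enteroendocrine fate, also had opposite steps. It stood at 3.05, 1.95 and 1.5 CPM at E12.5, 17.8, 15.7 and 18.7 at E14.5, 6.72, 7.74 and 4.09 in ISC and 2.91, 1.14 and 3.2 in AE. The E14.5 libraries were above all others, adult ones included. The rise was 7.94-fold (log2 2.99 ± 0.32) and the fall 2.51-fold (log2 -1.33 ± 0.34). Neurog3 left the class without AE replicate 2. Of 33 enteroendocrine genes, 15 rose and 3 fell in the embryonic step, and 26 rose and 1 fell in the adult step. Neurog3 was the 1 member of the list in this class, while the processing enzyme gene Cpe, the hormone gene Gcg and the transcription factor gene Rfx6 fell in the embryo and rose in the adult, and others, Gip, Cck, Pyy, Ddc and Slc18a1 among them, rose in the adult step only. The last class held 6 of the list, 3 without E12.5 replicate 1, 4 without E14.5 replicate 1 and 9 without E12.5 replicate 3.

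Outside these pathways, Ehf, an epithelial Ets transcription factor, stood at 6.44 to 10.3 CPM at E12.5, 49.8 to 59.9 at E14.5, 499 to 546 in ISC and 147 to 247 in AE. It rose 6.69-fold and was 2.67-fold lower in AE. Claudin genes for the seals between cells were divided: Cldn2, which forms a cation-permeable pore, stood at 15.1 to 20.7 CPM at E12.5, 91.8 to 92.8 at E14.5, 413 to 596 in ISC and 169.9 to 266 in AE. It rose 5.24-fold in the embryo and was 2.4-fold lower in AE. Cldn8 rose 2.16-fold and was 3.64-fold lower. Cldn6, a claudin of the embryo, and Cldn9 moved the other way, Cldn9 not without AE replicate 1.

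Also in the class were Phf19, a Polycomb-associated protein that binds methylated histone H3, with steps of 2.56 ± 0.23 and -2.03 ± 0.25, and Nod1, a receptor for bacterial cell-wall fragments, with 1.77 ± 0.21 and -1.91 ± 0.20. Krt23, a type I keratin, had steps of 2.92 ± 0.24 and -1.53 ± 0.20. Fgfbp1, a carrier of fibroblast growth factors, had 2.49 ± 0.33 and -1.11 ± 0.29. In each of these the groups of both steps were separate. Fgfbp1 left the class without ISC replicate 1 and without AE replicate 3. Gpr110, an adhesion receptor, stood at 0 to 0.0734 and 0.723 to 0.923 CPM in the embryo and at 19.2 to 27.6 and 2.45 to 3.31 CPM in ISC and AE. Ccdc3, a secreted protein, had steps of 2.93 ± 0.25 and -3.22 ± 0.23, but 65.2% of its 50-base sequences occur elsewhere in the transcripts, so its value is uncertain.

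Over the 202 genes the median level was 1.38 CPM at E12.5, 5.68 at E14.5, 11.5 in ISC and 3.13 in AE. The highest group was ISC for 131 genes and E14.5 for 71. Level was thus highest in the groups in the middle of the order E12.5, E14.5, ISC, AE, as the class requires.

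**Figure D2:**
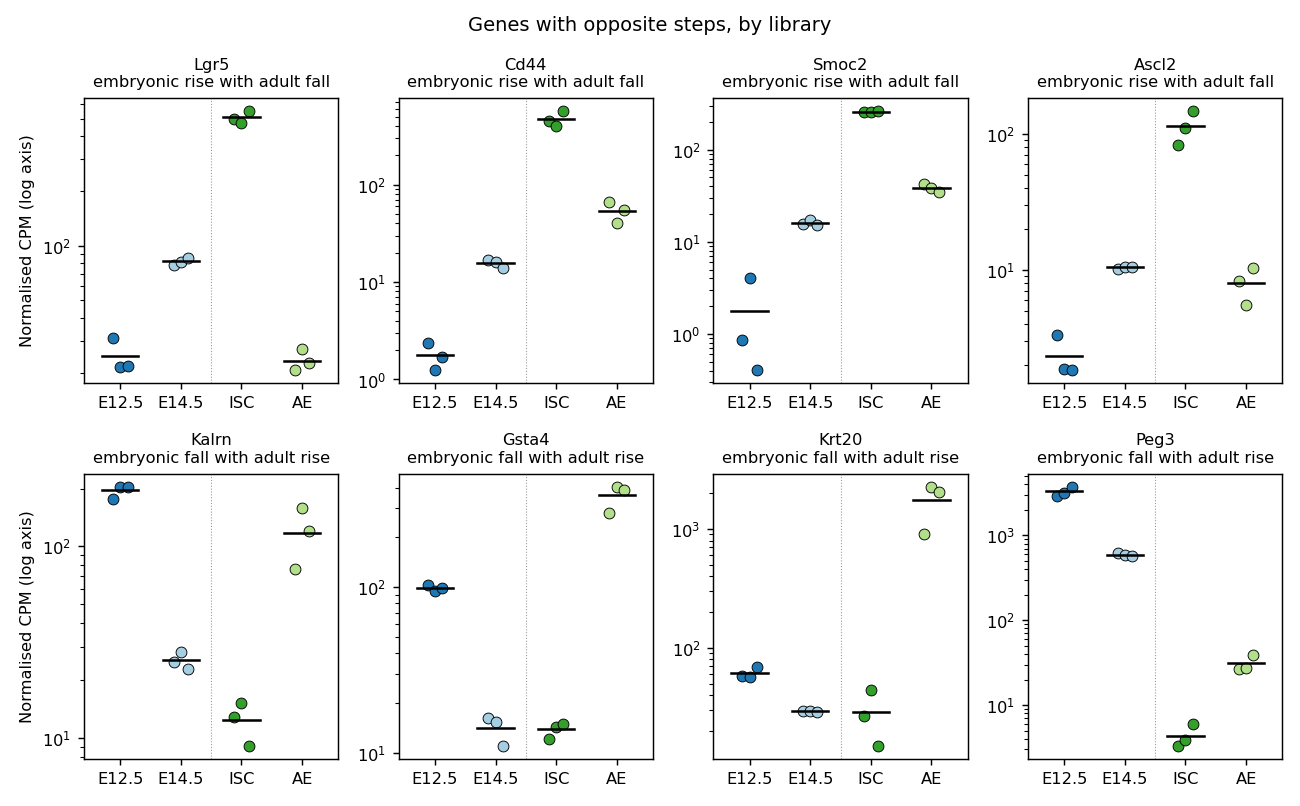
Normalised CPM (log axis) of 8 genes with opposite steps in each of the 12 libraries (points) with group means (bars), and a dotted line between the embryonic and adult groups. Lgr5, Cd44, Smoc2 and Ascl2 were higher in all E14.5 than all E12.5 libraries and lower in all AE than all ISC libraries, and Kalrn, Gsta4, Krt20 and Peg3 showed the reverse.

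The mirror class, an embryonic fall with an adult rise, was larger and different in make-up. Some genes of the finished enterocyte, present at E12.5, lower at E14.5 and high in AE, stood beside genes of the early embryo that reached only traces in the adult. The class held 1.85% of xenobiotic-metabolism, 2.56% of lipid-absorption and 3.23% of microvillus genes, against 2.12% of all genes. For brush-border hydrolases and nutrient transporters the shares were 3.85% and 5.26%. Of the 326 genes, 195 were highest at E12.5 and 131 in AE, the only groups that can be highest under the class rule. Median levels were 7.43 CPM at E12.5, 1.83 at E14.5, 0.431 in ISC and 2.77 in AE. Of the 528 genes of both opposite classes, 183 reached 5 CPM in at least 1 group of each step, 92 with an embryonic rise and 91 with an embryonic fall.

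Gsta4, a glutathione transferase that clears products of lipid peroxidation, stood at 104, 95.6 and 98.8 CPM at E12.5, 16.2, 15.4 and 11 at E14.5, 12.2, 14.3 and 15 in ISC and 283, 406 and 389.6 in AE. AE was highest, E12.5 second, and the other groups were close together. It fell 6.95-fold in the embryo (log2 -2.80 ± 0.17) and was 25.8-fold higher in AE (log2 4.69 ± 0.18), a difference of -7.49 ± 0.25 (adjusted p = 3.02e-10). Among 54 xenobiotic-metabolism genes it was alone in this class. In the list as a whole 28 rose and 3 fell in the embryo, and 49 rose and 3 fell in the adult.

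Kalrn, an exchange factor that activates small GTPases, stood at 178, 204 and 205 CPM at E12.5, 25, 28.2 and 23 at E14.5, 12.9, 15.1 and 9.09 in ISC and 75.8, 158 and 119.8 in AE. The E12.5 libraries were highest, and AE came back to a level between E14.5 and E12.5. Its steps were -2.94 ± 0.23 and 3.25 ± 0.25. Krt20, the keratin of mature villus enterocytes whose promoter is shown above, stood at 58.1, 56.8 and 69.3 CPM at E12.5, 29.2, 29.6 and 28.7 at E14.5, 26.8, 44.2 and 15 in ISC and 912, 2276 and 2038 in AE. Its embryonic fall was small (-1.07 ± 0.34, adjusted p = 0.0171), with every E14.5 library below every E12.5 library. Krt20 left the class without E12.5 replicate 3 and without E14.5 replicate 3. Its adult rise was large (5.93 ± 0.41).

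A few genes of absorption and digestion shared this pattern. Slc2a2, the glucose and fructose transporter GLUT2 of the basolateral membrane, stood at 4.24, 3.42 and 2.93 CPM at E12.5, 1.72, 1.48 and 1.54 at E14.5, 6.27, 11.7 and 6.13 in ISC and 518, 878 and 937 in AE. It fell 2.24-fold in the embryo, from a level that was already low, and was 97-fold higher in AE. Mme, the membrane peptidase neprilysin, stood at 5.52, 4.97 and 6.42 CPM at E12.5, 1.35, 1.66 and 1.49 at E14.5, 156, 185 and 153 in ISC and 1203, 3132 and 3605 in AE. It fell 3.74-fold and was 16.1-fold higher in AE. Only 1 of 26 brush-border hydrolases (Mme) and 2 of 38 nutrient transporters (Slc2a2 and Slc6a20b) were in the class. These shares of 3.85% and 5.26% stand beside 2.12% of all genes. The hydrolase count was 3 without AE replicate 1 or without ISC replicate 2, as Treh and Ace joined, and the transporter count was 1 without E12.5 replicate 1, where Slc2a2 left, and 3 without E12.5 replicate 3. Lama3, the laminin chain of epithelial anchoring, stood at 10.9, 24.8 and 8.33 CPM at E12.5, 4.91, 4.23 and 4.97 at E14.5, 1.84, 2.72 and 2.09 in ISC and 124.8, 279 and 302 in AE. All E12.5 libraries were above all E14.5 libraries, and its difference between steps was -8.36 ± 0.59.

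Interferon-response genes gave more members of this class than any other list, 6 of 43 (14%) against 2.12% of all genes: Ifit1, Ifit3, Zbp1, Usp18, Igtp and Ddx58. The count was 4 without E12.5 replicate 1 or without E14.5 replicate 2. Ifit1, which binds foreign RNA, stood at 10.1, 12.7 and 11.7 CPM at E12.5, 4.26, 4.53 and 2.94 at E14.5, 0.57, 0.545 and 1.09 in ISC and 21.4, 54.4 and 99.3 in AE. It fell 2.89-fold in the embryo and was 75.3-fold higher in AE, where the libraries spread widely. Ifit3 had the same pattern at lower levels (1.32 to 1.65, 0.324 to 0.571, 0.38 to 0.696 and 5.99 to 18.8 CPM in the same order of groups), with 51.2% of its sequence shared with other genes. Zbp1, a sensor of nucleic acids, stood at 0.257 to 0.355 CPM at E12.5 and 0.039 to 0.0879 at E14.5, both near the detection limit, and at 18.5 to 45.7 in AE. The remainder of the list was spread over the classes: Ddx60, Irf7, Mx2, Stat2 and Dhx58 rose in the adult step only, Iigp1, Ifit2 and Irgm1 fell in the embryonic step only, Ifitm2, Ifitm3 and Isg20 fell in the adult step only, and Irf2 rose in the embryonic step only. Without E12.5 replicate 1 Ddx60 and Mx2 left their class, and without E12.5 replicate 2 Ifitm2, Ifitm3 and Isg20 did. Over the list 13 rose and 12 fell in the embryo, and 33 rose and 4 fell in the adult. Ciita, the master regulator of MHC class II genes, was in the class too, at 0.77 to 1.28 and 0.254 to 0.449 CPM in the embryo and 17.9 to 26.9 and 47 to 66.5 CPM in the adult.

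Imprinted genes, which are expressed from the copy of 1 parent, were in both opposite classes. Peg3, a zinc-finger gene of fetal growth, stood at 2949.8, 3199 and 3759 CPM at E12.5, 620.1, 593 and 571 at E14.5, 3.3, 3.87 and 5.96 in ISC and 26.6, 27.4 and 38.8 in AE. The groups did not overlap in either step, but the adult libraries were far below the embryonic ones. It fell 5.55-fold in the embryo (log2 -2.47 ± 0.19) and rose 6.92-fold in the adult (log2 2.79 ± 0.21). Its neighbour Usp29 fell 4.71-fold in the embryo and had 3 counts in all ISC libraries and 12 in AE. Usp29 left the class without AE replicate 1, AE replicate 3, ISC replicate 2 or ISC replicate 3, and with no scaling factor. Ascl2, Kcnq1 and Plagl1 rose in the embryo and fell in the adult. Of the 36 imprinted genes 7 rose and 20 fell in the embryonic step, and 11 rose and 8 fell in the adult step.

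Several other genes high at E12.5 had an adult rise that rests on few reads. Kcnk2, a potassium channel, stood at 79.99, 66.8 and 74.8 CPM at E12.5, 4.49, 4.51 and 4.88 at E14.5, 0.127, 0 and 0 in ISC and 0.701, 0.245 and 0.799 in AE, with 2 counts over the ISC libraries. Cyp26b1, the enzyme that breaks down retinoic acid, stood at 36.9, 41.5 and 44.5 CPM at E12.5, 1.37, 1.33 and 1.63 at E14.5, 0, 0 and 0.0435 in ISC and 0.385, 0.163 and 0.343 in AE, with 1 count over the ISC libraries. The embryonic falls were 16-fold for Kcnk2 and 28.7-fold for Cyp26b1, and the adult step of both is a difference between traces. Serpina1a, a liver gene, had 0 counts in ISC and 3 in AE, all in AE replicate 1. Without that library its difference between steps missed the test (adjusted p = 1.000), and 57.6% of its sequence is shared.

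Emb, a cell-adhesion glycoprotein, stood at 102 to 109 CPM at E12.5, 11.9 to 13.4 at E14.5, 0.0435 to 0.327 in ISC and 1.19 to 3.76 in AE. Fam167a stood at 22.8 to 25.1 CPM at E12.5, 2.9 to 3.49 at E14.5, 0.0634 to 0.272 in ISC and 2.7 to 5.47 in AE. Both fell strongly in the embryo (8.57- and 7.46-fold), and in both the AE libraries were above the ISC libraries and below those of E14.5 (Emb) or overlapping them (Fam167a). Cpe, the peptide-processing enzyme of endocrine cells, stood at 41.2, 37 and 44.5 CPM at E12.5, 7.0, 5.85 and 8.61 at E14.5, 1.27, 2.07 and 1.7 in ISC and 18.5, 34.1 and 25.8 in AE. The AE libraries came between E14.5 and E12.5. Dclk1, a kinase known as a tuft-cell marker, stood at 2.53 to 2.75 CPM at E12.5, 0.659 to 1.05 at E14.5, 6.21 to 9.32 in ISC and 16.5 to 21 in AE. Its fall of 2.76-fold and rise of 2.38-fold were both modest and without overlap.

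Lats2, a kinase of the Hippo pathway, stood at 33.4 to 38.2 CPM at E12.5, 14.2 to 17.2 at E14.5, 2.03 to 5.28 in ISC and 17.3 to 48.2 in AE, with 41.2% of its sequence shared. Vnn1, a pantetheinase of the gut, stood at 3.3 to 3.43 CPM at E12.5, 0.923 to 1.27 at E14.5, 4.31 to 6.21 in ISC and 31.2 to 152 in AE. Lgals3, a galactose-binding lectin of the enterocyte, stood at 1.5 to 2.04 CPM at E12.5, 0.483 to 0.898 at E14.5, 1.96 to 6.81 in ISC and 74.5 to 142 in AE. Lgals3 left the class when any 1 of the 6 embryonic libraries was left out. Bmp8b, a ligand of the BMP family, stood at 5.69 to 8.39 CPM at E12.5, 2.17 to 2.64 at E14.5, 2.6 to 2.83 in ISC and 3.54 to 10.4 in AE. In Bmp8b AE replicate 1 was the lowest AE library and still above all ISC libraries. Vim, the intermediate filament of mesenchymal cells, stood at 139.5 to 187 CPM at E12.5, 71.9 to 73.5 at E14.5, 1.61 to 2.83 in ISC and 2.78 to 5.5 in AE. It left the class without AE replicate 1, without ISC replicate 3, with upper-quartile scaling and with no scaling factor. It fell in the embryo, as did the summed mesenchymal markers given above, though most of the single markers rose. The part of these markers in the result was not tested.

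The largest of the 6 classes was an adult fall with no called embryonic step, and it held most of the mitosis and DNA replication genes. The embryonic step was tested in 1 fit of all 12 libraries, which called it for 7544 genes. Fitted on the 6 embryonic libraries alone it was called for 10039 genes, and the class was not rebuilt from that fit. Of 36 mitosis genes, 26 (72.2%) were in it, against 7.91% of all genes, and of 47 DNA replication genes 27 (57.4%). All 36 mitosis genes fell in the adult step, whereas 3 rose and 4 fell in the embryonic step. The 4 embryonic falls became 12 without AE replicate 1, 8 with DESeq2 or limma-voom, and 0 or 1 without any 1 of the embryonic libraries. Their medians were −0.14 for the embryonic and −1.62 for the adult step. For DNA replication 42 of 47 fell in the adult and 4 rose and 4 fell in the embryo, with medians of −0.11 and −1.42. Without AE replicate 1 these embryonic counts were 7 and 10, and without E14.5 replicate 1 they were 1 and 1. Summed mitosis genes stood at 7509 to 7957 CPM at E12.5, 6291 to 6670 at E14.5, 7104 to 9083 in ISC and 1612 to 3246 in AE. Every E14.5 library was below every E12.5 library in this sum. Summed replication genes stood at 4456 to 4791 CPM at E12.5, 4280 to 4538 at E14.5, 3169 to 3441 in ISC and 1148 to 1786 in AE, with every ISC library below every embryonic one. Without AE replicate 1 the class had 20 mitosis genes, 19 of the 26 among them, and 24 replication genes, 22 of the 27 among them. With no scaling factor it had 31 and 38.

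Ttk, a kinase of the spindle checkpoint, stood at 107, 121 and 124 CPM at E12.5, 104, 107 and 94.5 at E14.5, 110.4, 102 and 119 in ISC and 37.5, 19.8 and 22.3 in AE. The embryonic libraries and ISC were close together, AE replicate 1 was highest of the AE libraries, and all AE libraries were below all others. The embryonic step was -0.20 ± 0.18 (95% interval -0.58 to 0.18) and the adult step -2.04 ± 0.19. Mki67, the proliferation marker whose promoter is shown above, stood at 1303, 1327 and 1351 CPM at E12.5, 993, 1038 and 1015 at E14.5, 1857, 2118 and 2380.4 in ISC and 641, 344 and 427 in AE. Its E14.5 libraries were all below its E12.5 libraries, and the embryonic step (-0.39 ± 0.18) missed the test at an adjusted p of 0.0927. Mki67 left the class without AE replicate 1. Its adult fall was 4.5-fold. Hmmr, a spindle-associated hyaluronan receptor, had steps of 0.26 ± 0.24 and -1.56 ± 0.25.

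Among replication genes, Pola1, the catalytic subunit of DNA polymerase alpha, stood at 93.3, 119 and 116 CPM at E12.5, 124, 124.9 and 124.9 at E14.5, 126, 131 and 130.1 in ISC and 46.5, 24.6 and 25.6 in AE. Its partner Prim1, the primase, stood at 91.4, 87.8 and 88 CPM at E12.5, 87.4, 86.4 and 92.5 at E14.5, 98.7, 113 and 108 in ISC and 36.2, 22.1 and 24.4 in AE. Pole2, a subunit of polymerase epsilon, stood at 35.2, 38.6 and 38.1 CPM at E12.5, 38.5, 38.4 and 43.9 at E14.5, 29.3, 30.6 and 26 in ISC and 9.22, 8.17 and 6.62 in AE. In all 3 the embryonic groups and ISC lay close together and AE was lower throughout. The adult falls were 3.95-, 3.81- and 3.51-fold, and the embryonic steps had 95% intervals of -0.21 to 0.59, -0.31 to 0.30 and -0.15 to 0.37.

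Ribosome biogenesis, which supplies growing cells with ribosomes, was mostly in this class too. Of 39 genes, 21 (53.8%) fell in the adult step only. In the list 36 fell and none rose in the adult, and 12 rose and none fell in the embryo. The 12 became 6 to 8 without E12.5 replicate 1 or 2 or any 1 of the E14.5 libraries. The medians were 0.19 and −1.44. Nop56, a core protein of box C/D ribonucleoproteins, stood at 383, 373 and 415 CPM at E12.5, 384, 375 and 385 at E14.5, 255, 336 and 380.3 in ISC and 101, 43 and 56.3 in AE. The embryonic libraries and ISC overlapped, and AE was lower in all 3 libraries. Its adult fall was 4.81-fold and its embryonic step -0.03 ± 0.23. Fbl, the methyltransferase fibrillarin of the same particles, fell 4.11-fold, and Rrp1b, a nucleolar protein, fell 6.57-fold.

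Some genes of DNA methylation were in this class as well. Dnmt1, which copies methylation after replication, stood at 452, 435 and 522 CPM at E12.5, 424, 417 and 430.4 at E14.5, 381, 379.8 and 366 in ISC and 139, 86.6 and 92.4 in AE. E12.5, E14.5 and ISC were close together and AE was lower throughout, with an adult fall of 3.53-fold. Uhrf1, which brings Dnmt1 to replicated DNA, stood at 220.2, 223 and 245 CPM at E12.5, 233, 243 and 257 at E14.5, 112, 124 and 111 in ISC and 53.1, 29.1 and 28.8 in AE. It fell 3.09-fold in the adult, and its ISC level was below that of the embryo. Dnmt3b, a de novo methyltransferase, fell 3.26-fold. Together with Hells and Uhrf2 these were 5 of 19 genes (26.3%) of the list, and 8 with no scaling factor. In the embryonic step 3 of the 19 rose and 7 fell, and in the adult step 3 rose and 12 fell. Replication-dependent histone genes were 8 of 39 (20.5%). In the embryonic step 14 of the 39 fell (9 without E14.5 replicate 1 or 2) and 3 rose, and in the adult step 33 fell and 1 rose.

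Immediate-early genes, which respond to signals before new protein is made, gave 7 of 28 (25%): Nr4a1, Nr4a2, Egr2, Fosl1, Jun, Dusp1 and Rhob. Nr4a1, a nuclear receptor, stood at 19.7, 14.9 and 16.1 CPM at E12.5, 14.4, 12.9 and 15.1 at E14.5, 219, 103 and 69.8 in ISC and 17.8, 3.1 and 6.74 in AE. ISC replicate 1 was highest, and the ISC libraries alone were far above the rest. Egr2 stood at 101, 60.4 and 76.2 CPM at E12.5, 85.1, 84.3 and 93.7 at E14.5, 144.9, 70.9 and 64.8 in ISC and 41.4, 8.82 and 10.4 in AE, with AE replicate 1 well above the other AE libraries. Summed immediate-early genes were at 1058 to 1607 CPM at E12.5, 1776 to 1990.04 at E14.5, 8199 to 13293 in ISC and 3736 to 6446 in AE. The heat-shock genes Dnajb1 and Hsph1 were in the class too, with adult steps of -1.49 ± 0.29 and -2.01 ± 0.38, and ISC levels of 158 to 304 and 549 to 865 CPM.

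Genes outside these groups were named for their size. Sorbs2, an adaptor of the actin cytoskeleton, stood at 81.3, 76.4 and 67.7 CPM at E12.5, 86.7, 90.8 and 84.3 at E14.5, 216, 211 and 217 in ISC and 15, 9.15 and 15.5 in AE. It fell 16.2-fold in the adult and changed by 0.22 ± 0.14 in the embryo. A930009A15Rik stood at 1.19 to 2.09 CPM at E12.5, 1.54 to 2.44 at E14.5, 32.2 to 35.5 in ISC and 0.327 to 1.93 in AE, high in ISC and low elsewhere. Lamb2, a laminin chain, fell 8.8-fold in the adult (10.01 to 12.7 CPM in ISC, 1.14 to 1.71 in AE) and was at 27.1 to 28.1 and 25.9 to 29 CPM in the embryo. Lama4, another laminin chain, fell 8.02-fold. Cbx7, a Polycomb protein, fell 3.52-fold, and Hoxb5, a homeobox gene of positional identity, fell 7.43-fold. Cbx7 left the class without E12.5 replicate 1 and without AE replicate 1 or 2. Gpc3, a glypican of fetal growth control, stood at 173, 174 and 147 CPM at E12.5, 136, 140.2 and 133 at E14.5, 0.253, 0.218 and 0.087 in ISC and 0, 0 and 0 in AE. It had 10 counts over ISC and 0 over AE. Against the level of 3 counts over the group, ISC was at least 3.07-fold higher, so its adult step rests on traces.

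**Figure D3:**
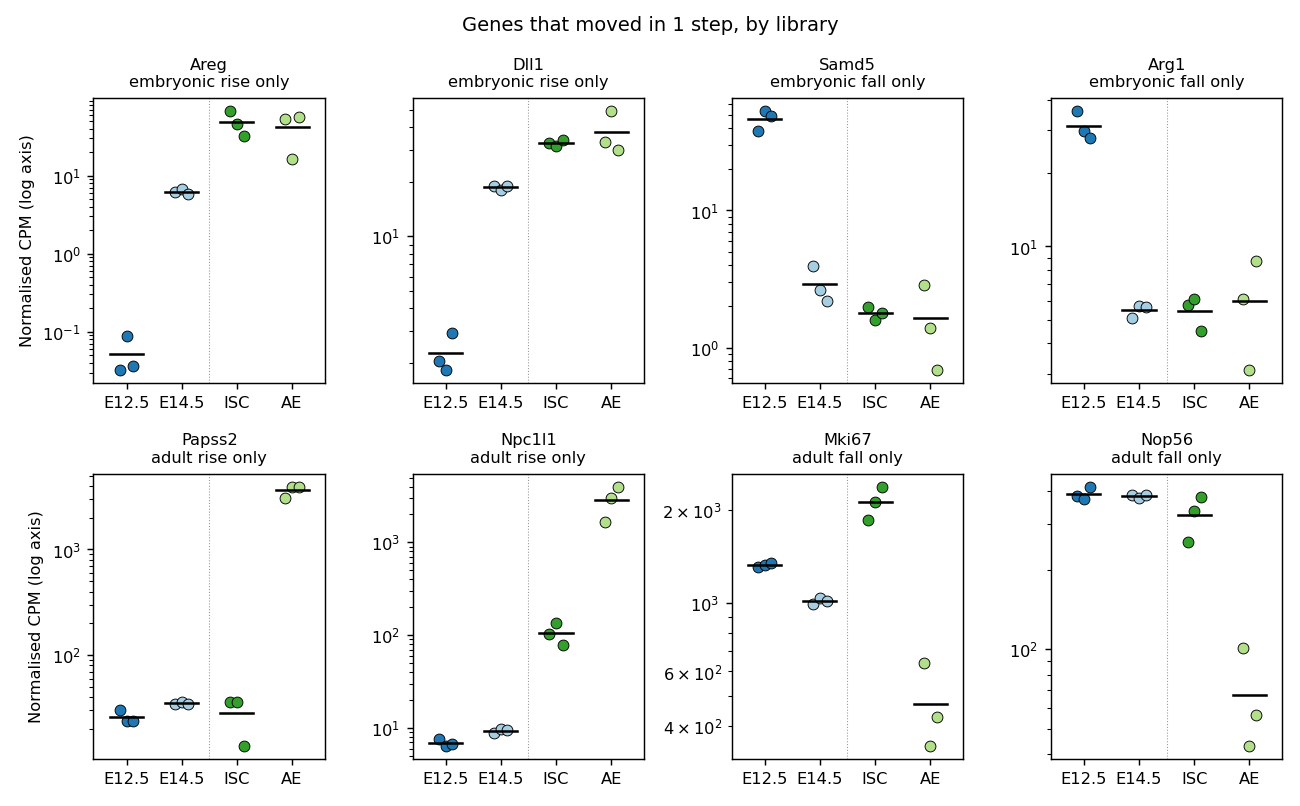
Normalised CPM (log axis) of 8 genes that moved in 1 step, in each of the 12 libraries (points) with group means (bars), and a dotted line between the embryonic and adult groups. Areg and Dll1 separate E14.5 from E12.5 upward and Samd5 and Arg1 downward with overlapping adult groups, while Papss2 and Npc1l1 rise and Mki67 and Nop56 fall in AE.

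The class of an adult rise only held genes of transport and metabolism in the mature enterocyte. Of 38 nutrient transporters, 12 (31.6%) were in it, against 5.79% of all genes, and of 39 lipid-absorption genes 7 (17.9%). Cholesterol synthesis gave 5 of 25 (20%), microvillus genes 6 of 31 (19.4%), enteroendocrine genes 6 of 33 (18.2%), xenobiotic metabolism 8 of 54 (14.8%) and brush-border hydrolases 3 of 26 (11.5%). Many members of these lists also rose in the embryo, namely 14 of the transporters, 24 of the lipid, 10 of the cholesterol, 20 of the microvillus, 15 of the enteroendocrine, 28 of the xenobiotic and 12 of the hydrolase genes. Without AE replicate 1 the class held 4 microvillus genes and 2 hydrolases, and the embryonic falls among hydrolases went from 2 to 6. Without E12.5 replicate 1 it held 4 lipid genes, as Slc27a4, Npc1l1 and Rbp2 left. With no scaling factor it held 2 cholesterol genes, as Mvk, Sqle and Cyp51 left, and the adult rises in that list went from 24 to 15.

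The nutrient transporters were Slc7a15, Slc9a3, Slc40a1, Slc2a5, Slc26a6, Trpv6, Slc3a1, Slc3a2, Slc7a7, Slc7a8, Slc11a2 and Slc5a9. Slc9a3, the apical sodium-proton exchanger NHE3, stood at 0.321, 0.311 and 0.77 CPM at E12.5, 0.548, 0.507 and 0.483 at E14.5, 4.69, 3.21 and 1.65 in ISC and 169.6, 151 and 246 in AE. The 6 embryonic libraries were all under 1 CPM, ISC was slightly higher and AE far above. Its adult rise was 60.9-fold (log2 5.93 ± 0.32). Slc7a15, an amino acid transporter, stood at 0.128 to 0.183 and 0.137 to 0.176 CPM in the embryo, 0.887 to 2.89 in ISC and 42.2 to 158 in AE. Slc1a5 and Slc7a5, amino acid carriers of growing cells, were the 2 members of the list that fell in the adult step only.

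Npc1l1, the cholesterol importer of the brush border, stood at 7.64, 6.39 and 6.79 CPM at E12.5, 8.85, 9.66 and 9.54 at E14.5, 103, 136 and 77.8 in ISC and 1670.5, 3025 and 3995 in AE. Both embryonic groups were under 10 CPM, ISC was intermediate and AE highest. It rose 27.4-fold in the adult, against an embryonic step of 0.43 ± 0.28 (95% interval -0.17 to 1.02). Rbp2, the retinol-binding protein of the enterocyte, stood at 3.53, 2.58 and 1.87 CPM at E12.5, 3.24, 3.22 and 3.38 at E14.5, 22.6, 37.1 and 14 in ISC and 1434, 2567 and 2334 in AE. It rose 86.1-fold. Slc27a4, a fatty acid transport protein, rose 29.9-fold (19.7 to 27.1 CPM in ISC, 369.6 to 871 in AE). In all 3 AE replicate 1 was the lowest AE library and stood far above every ISC library.

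Enzymes of synthesis and detoxification included Cyp3a13 and Cyp2d26 of the cytochrome P450 families. Cyp3a13 stood at 55.1, 47.2 and 49 CPM at E12.5, 61.7, 62.5 and 64.6 at E14.5, 22.1, 43.2 and 17.5 in ISC and 526, 1505 and 1288 in AE. The embryonic libraries were above those of ISC, and the adult rise of 40.1-fold brought AE above all. Papss2, which makes the sulphate donor for sulphotransferases, stood at 30.4, 23.8 and 23.8 CPM at E12.5, 34.6, 35.7 and 34.4 at E14.5, 35.7, 35.8 and 13.8 in ISC and 3048, 3919 and 3933 in AE. E12.5, E14.5 and ISC were at a like low level, and AE was 128-fold higher than ISC (difference between steps -6.58 ± 0.40, adjusted p = 3.21e-08). Every E14.5 library was above every E12.5 library, and Papss2 left the class without E12.5 replicate 1 and without ISC replicate 3. The cholesterol-synthesis genes Sqle, Sc4mol, Mvk, Cyp51 and Dhcr7 had the class in common, but not a low embryonic level: Sqle, the squalene epoxidase, stood at 228, 212 and 203 CPM at E12.5, 198, 203 and 208 at E14.5, 41.4, 32.3 and 32.6 in ISC and 123, 97.2 and 67.6 in AE. Both embryonic groups were above AE, and ISC was lowest. Mvk, mevalonate kinase, and Sc4mol, a sterol methyl oxidase, were likewise lowest in ISC (5.61 to 7.48 and 7.48 to 13.1 CPM) and at 25.2 to 26.1 and 83.8 to 85.4 CPM at E14.5. For these 3 the adult rise started from the low level of the stem cells, and no AE library passed the E14.5 libraries.

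The microvillus scaffolds Slc9a3r1 (EBP50) and Pdzk1 rose 14.6- and 10.7-fold in the adult. Slc9a3r1 stood at 131 to 159.7 CPM at E12.5, 124 to 130.3 at E14.5, 53.4 to 76.5 in ISC and 592 to 1229 in AE, again with ISC lowest. Pdzk1 has 34.6% of its sequence in common with other genes. Maoa, the mitochondrial amine oxidase, stood at 41.5 to 45 CPM at E12.5, 46.5 to 48.6 at E14.5, 101 to 150.5 in ISC and 1383 to 2181 in AE, and Cndp2, a cytosolic dipeptidase, at 17.5 to 21.6 CPM at E12.5, 18.6 to 19.9 at E14.5, 12 to 25.1 in ISC and 218 to 643 in AE. Pmp22, a membrane protein of myelin and of epithelia, stood at 1.44, 2.98 and 1.1 CPM at E12.5, 2.69, 1.81 and 1.19 at E14.5, 1.01, 3.0 and 0.609 in ISC and 174, 647 and 859 in AE. It was at a like low level in the 9 other libraries and had the largest adult rise of the named genes, 8.53 ± 0.69 on the log2 scale. Aldh4a1, of proline breakdown, rose by 6.59 ± 0.68, with AE libraries from 14.7 to 128 CPM and 30% of its sequence shared.

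Regulators in this class included Creb3l3, a membrane-bound transcription factor of lipid metabolism, at 1.76, 1.55 and 2.38 CPM at E12.5, 1.77, 2.09 and 1.93 at E14.5, 20.8, 27.4 and 9.57 in ISC and 255, 429 and 576 in AE. The embryonic libraries were all low, ISC was higher and AE highest, with an adult rise of 21.9-fold. Prdm1 (Blimp1), a repressor that holds back adult enterocyte genes before weaning, stood at 612, 543 and 560.1 CPM at E12.5, 567, 594 and 524 at E14.5, 2.85, 2.12 and 1.61 in ISC and 15.6, 29.3 and 40.9 in AE. It did not change in a called way in the embryo (-0.03 ± 0.24), and although it rose 13-fold in the adult, AE stayed far below the embryo. Klf4, a factor of differentiated epithelium, stood at 21.5 to 30.1 CPM at E12.5, 22.3 to 25.4 at E14.5, 51.5 to 84.3 in ISC and 205 to 413 in AE, with an adult rise of 4.48-fold. The cell-cycle inhibitors Ccng2, Rb1 and Cdkn1c were 3 of 17 of their list (17.6%). Rb1, the retinoblastoma protein, stood at 21.5, 21.8 and 18 CPM at E12.5, 21.8, 23.1 and 18.9 at E14.5, 67.5, 62.9 and 66.6 in ISC and 244, 254 and 300.3 in AE. Its embryonic groups overlapped, and it was higher in ISC and highest in AE, with an adult rise of 4.05-fold. Cdkn1c, the imprinted inhibitor p57, had its highest level in the embryo (130.3 to 183 and 124 to 148 CPM) and rose 4.11-fold in the adult (1.33 to 2.45 CPM in ISC, 6.45 to 10.9 in AE), with 24.9% of its sequence shared.

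Some hormone genes were in this class. Cck, the gut hormone cholecystokinin, stood at 4.3, 1.38 and 2.2 CPM at E12.5, 3.36, 2.44 and 4.13 at E14.5, 15.8, 5.94 and 4.26 in ISC and 229, 448 and 437 in AE. Embryonic and ISC levels were low and AE was 43.7-fold above ISC. Gip, another gut hormone, stood at 0.289, 0.0888 and 0 CPM at E12.5, 0.0997, 0.215 and 0.22 at E14.5, 2.6, 1.69 and 1.52 in ISC and 157, 589 and 352 in AE. Its embryonic level rests on 11 and 20 counts, and without E12.5 replicate 1 the difference missed the test (adjusted p 0.213). The sugar transporter Slc2a7 likewise rested on 6 and 8 embryonic counts and missed the test without that library (adjusted p 0.0724).

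Defence genes of the class included H2-Q2, an MHC class I gene, at 7.63 to 8.53 CPM at E12.5, 9.74 to 10.5 at E14.5, 8.65 to 14.9 in ISC and 142 to 306 in AE. H2-DMa, which loads peptides on MHC class II, stood at 1.06 to 1.28 CPM at E12.5, 1.01 to 1.83 at E14.5, 22 to 30.9 in ISC and 84.1 to 155 in AE. H2-DMa left the class without E12.5, E14.5 or ISC replicate 3, without AE replicate 2 or 3, and with no scaling factor. Il15, a cytokine that supports intraepithelial lymphocytes, stood at 7.09 to 10.2 CPM at E12.5, 9.29 to 10.02 at E14.5, 7.57 to 8.17 in ISC and 19.5 to 61.7 in AE. Edem1, of endoplasmic reticulum quality control, had narrow errors in both steps: its embryonic step was -0.06 ± 0.09 and its adult step 1.70 ± 0.10.

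With all 12 libraries in 1 fit, fewer genes were in the embryonic one-step classes than in the adult ones. With each step fitted on its own 6 libraries, more genes were called in the embryonic step (10039) than in the adult step (8864). Genes of the embryonic rise only had no called difference between ISC and AE. Areg, the EGF receptor ligand amphiregulin, stood at 0.0321, 0.0888 and 0.0367 CPM at E12.5, 6.13, 6.71 and 5.76 at E14.5, 67.6, 46.3 and 31.9 in ISC and 52.7, 16.5 and 55.9 in AE. It was at traces at E12.5 (4 counts over the group), present in every E14.5 library and high with wide overlap in both adult groups. Its embryonic rise was 6.84 ± 0.74 on the log2 scale and its adult step -0.22 ± 0.34 (95% interval -0.95 to 0.52). Agmat, agmatinase, stood at 0.385, 0.311 and 0.183 CPM at E12.5, 8.82, 8.68 and 9.98 at E14.5, 40.7, 33.6 and 39.2 in ISC and 36.8, 23.5 and 27.6 in AE. It rose 30.4-fold in the embryo, and its adult step (-0.36 ± 0.17) missed the test at an adjusted p of 0.0724.

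Of 22 Paneth-cell genes, 6 rose and 2 fell in the embryonic step (27.3% rose, against 23.6% of all genes), while their summed level was lower at E14.5 than at E12.5. The 3 genes that rose in the embryonic step only did so from traces. Lyz1, lysozyme, stood at 0.321, 0.4 and 1.36 CPM at E12.5, 9.02, 8.88 and 7.65 at E14.5, 2902, 3553 and 2088 in ISC and 6245, 2577 and 2494 in AE. Ang4, an antimicrobial ribonuclease, stood at 0, 0 and 0.0367 CPM at E12.5, 0.548, 0.82 and 0.879 at E14.5, 148, 159.9 and 95.3 in ISC and 210.3, 85.5 and 187 in AE, with 1 count over E12.5 and 84 over E14.5. Mmp7, the protease that activates defensins, had 1 count over E12.5 and 36 over E14.5. All 3 were far higher in both adult groups than in the embryo, and ISC and AE overlapped. Paneth genes are in the adult libraries of both groups with the summed levels given above, and the part that Paneth cells in the sorts play in the adult step was not tested. These 3 were 13.6% of the list, and Pnliprp2 and Habp2 fell in the embryonic step only. Without AE replicate 1 (Mmp7 left), or ISC replicate 2 or AE replicate 3 (Lyz1 left), 2 of the 3 stayed in the class, and without AE replicate 2 only Mmp7 did.

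Ccl9, a chemokine, and Galnt12, an enzyme that starts the sugar chains of mucins, were the 2 of 22 goblet-cell genes here. Galnt12 stood at 3.86 to 6.16 CPM at E12.5, 13.9 to 15 at E14.5, 24.1 to 27.4 in ISC and 16.3 to 29 in AE. Id1, a target of BMP signalling, stood at 4.22 to 4.44 CPM at E12.5, 12.1 to 13.4 at E14.5, 33.3 to 96.6 in ISC and 65.4 to 83 in AE, with adult libraries that overlapped and were all above the embryonic ones. Tnfsf10, the death ligand TRAIL, stood at 0.0444 to 0.33 CPM at E12.5, 1.39 to 1.67 at E14.5, 223 to 309 in ISC and 244 to 334 in AE. Erap1, which trims peptides for MHC class I, stood at 28.9 to 32.8 CPM at E12.5, 75.2 to 82 at E14.5, 149 to 182 in ISC and 167 to 231 in AE, a rise of 2.57-fold in the embryo against 0.25 ± 0.12 in the adult. Erap1 left the class without ISC replicate 3, without AE replicate 2 and with relative log expression scaling. Pdk4, a kinase that restrains pyruvate oxidation, had 6 counts over E12.5 and 66 over E14.5, and its difference missed the test with limma-voom (adjusted p 0.165) and without E12.5 replicate 1 (0.0537).

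Acta2, smooth-muscle actin, stood at 3.43, 5.11 and 6.13 CPM at E12.5, 69.2, 73.6 and 54.4 at E14.5, 1.01, 0.49 and 0.13 in ISC and 0.421, 0.0817 and 1.03 in AE. It rose 13.5-fold in the embryo and was near 1 CPM or below in all 6 adult libraries, so that its adult step was between traces. Acta2 left the class without ISC replicate 1 or 3, without AE replicate 3 and with no scaling factor. Of the 34 mesenchymal and smooth-muscle markers, 28 rose and 5 fell in the embryonic step, while the summed level given above was lower at E14.5. Cnn1, calponin of smooth muscle, rose in the embryo (0.193 to 0.734 CPM at E12.5, 5.66 to 6.48 at E14.5) and had 21 counts over ISC and 1 over AE. The part of mesenchymal cells in the EpCAM+ sort of E14.5 in these rises was not tested. Prkcb, protein kinase C beta, was also below 1 CPM in all adult libraries, and without ISC replicate 2 its difference missed the test (adjusted p 0.0617). Of the 183 genes of the class, 163 (89.1%) were at 1 CPM or more in both adult groups.

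Of the 165 genes that fell in the embryonic step only, 132 were highest at E12.5, against 4864 of all 15342 genes. The class requires E12.5 to be above E14.5, so this count is partly set by the rule. Of the 165, 111 (67.3%) were at 1 CPM or more in both adult groups. Samd5, a gene with a SAM domain, stood at 38.1, 53.2 and 48.5 CPM at E12.5, 3.91, 2.65 and 2.2 at E14.5, 1.96, 1.58 and 1.78 in ISC and 2.87, 1.39 and 0.685 in AE. E14.5 had already come down close to the adult level, and the adult groups overlapped. It fell 15.7-fold (log2 -3.98 ± 0.30) against an adult step of 0.11 ± 0.37. Arg1, the arginase of the urea cycle, stood at 36, 29.7 and 27.8 CPM at E12.5, 5.11, 5.7 and 5.67 at E14.5, 5.77, 6.1 and 4.48 in ISC and 6.1, 3.1 and 8.68 in AE. It fell 5.68-fold to a level that all later groups shared. Mylip, a ubiquitin ligase for the LDL receptor, stood at 46.8, 49.3 and 45.6 CPM at E12.5, 10.8, 8.96 and 9.01 at E14.5, 5.89, 5.77 and 4.83 in ISC and 3.61, 8.01 and 9.59 in AE, a fall of 4.92-fold.

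Tub, a neuronal signalling protein, fell 6.91-fold in the embryo with 8 and 8 counts in the adult groups, and missed the test without AE replicate 1 (0.574).

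**Figure D4:**
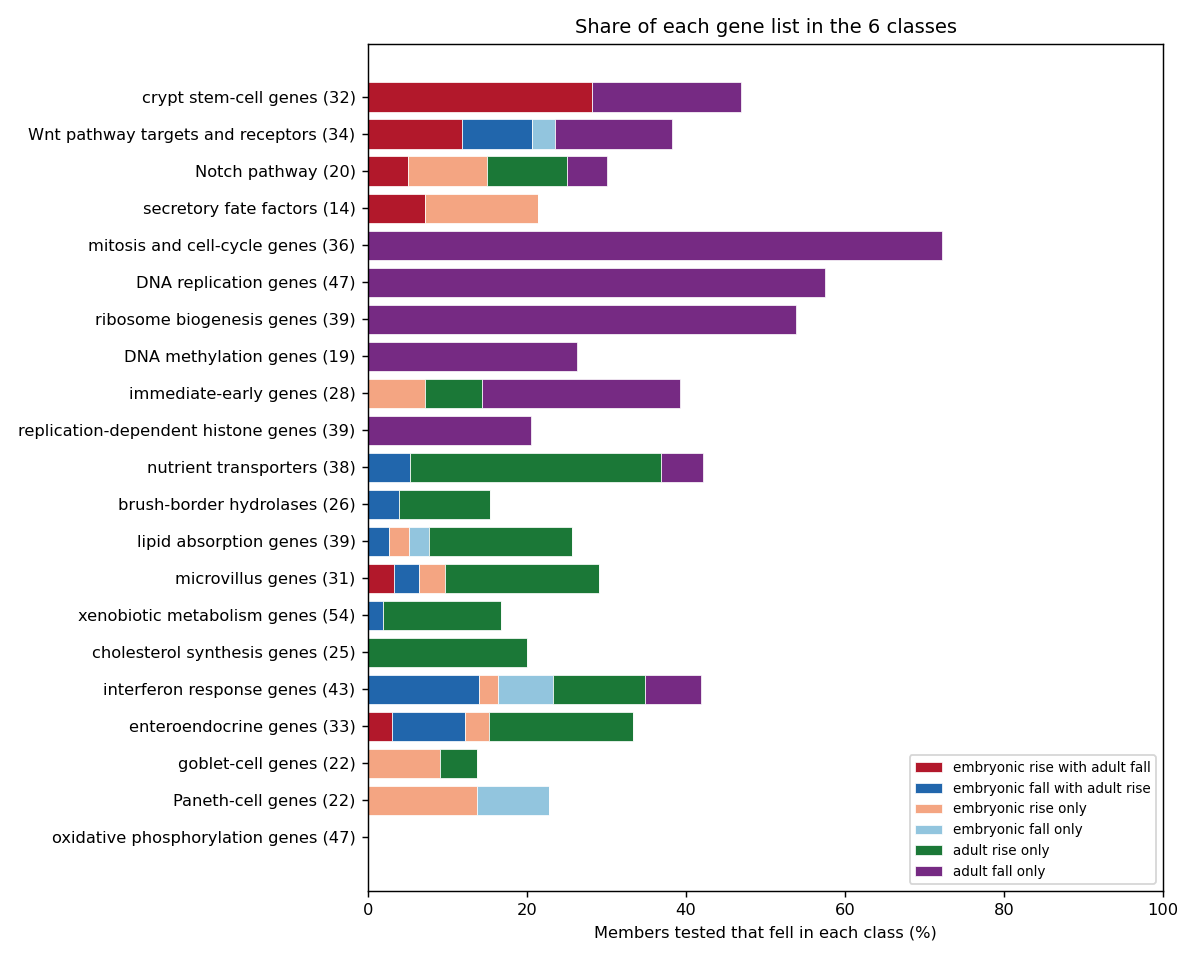
Share of the tested members of 21 gene lists (number tested in brackets) that fell in each of the 6 classes, as stacked bars in percent. Mitosis, DNA replication and ribosome biogenesis genes are mostly adult fall only (72.2%, 57.4% and 53.8%), stem-cell genes hold the largest share with an embryonic rise and adult fall (28.1%), and no oxidative phosphorylation gene is in any class.

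Other groups moved in the same direction in both steps. Of 47 oxidative phosphorylation genes, the subunits of the respiratory chain, 43 rose in the embryo and 46 in the adult, with medians of 0.88 and 1.26, and none was in an opposite or one-step class. The difference was called lower in 11 and higher in none. With no scaling factor it was lower in none and higher in 3, so the smaller embryonic step of these genes depends on the scaling. Uqcrfs1, the iron-sulphur subunit of complex III, stood at 44.2, 41.5 and 34.4 CPM at E12.5, 61.9, 69.1 and 64.1 at E14.5, 79.7, 73.9 and 63.5 in ISC and 233, 213 and 229 in AE. It rose in both steps without overlap (0.70 ± 0.12 and 1.64 ± 0.12). Of 22 goblet-cell genes 18 rose in the embryo and 20 in the adult, none fell in either, and the difference was higher in 6 and lower in 6.

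Hox genes fell in both steps and more in the adult: of 17 tested, 11 fell in the embryo and 14 in the adult, and the difference was higher in 8 and lower in none. Hoxb3 stood at 8.13 to 12 CPM at E12.5, 5.23 to 5.98 at E14.5, 5.39 to 8.12 in ISC and 0.245 to 0.596 in AE, with 51.4% of its sequence shared. Hnf4a, the nuclear receptor that drives enterocyte genes, stood at 325, 265 and 314 CPM at E12.5, 1037, 1042 and 1000.1 at E14.5, 1642, 1546 and 1879 in ISC and 2378, 2074 and 2019 in AE. It rose 3.41-fold in the embryo and 1.28-fold in the adult, the embryonic rise being the larger (difference 1.42 ± 0.17, adjusted p = 1.55e-05). Cdx2, the transcription factor of intestinal identity, stood at 80.3, 62.2 and 76.7 CPM at E12.5, 58.9, 54.9 and 55.6 at E14.5, 60.1, 50.4 and 75.1 in ISC and 61, 56.4 and 69.4 in AE. The difference between its steps (-0.38 ± 0.20) missed the test, and its sign turned with no scaling factor (0.15). Without ISC replicate 3 it was called at -0.56 (adjusted p = 0.0201).

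**Figure D5:**
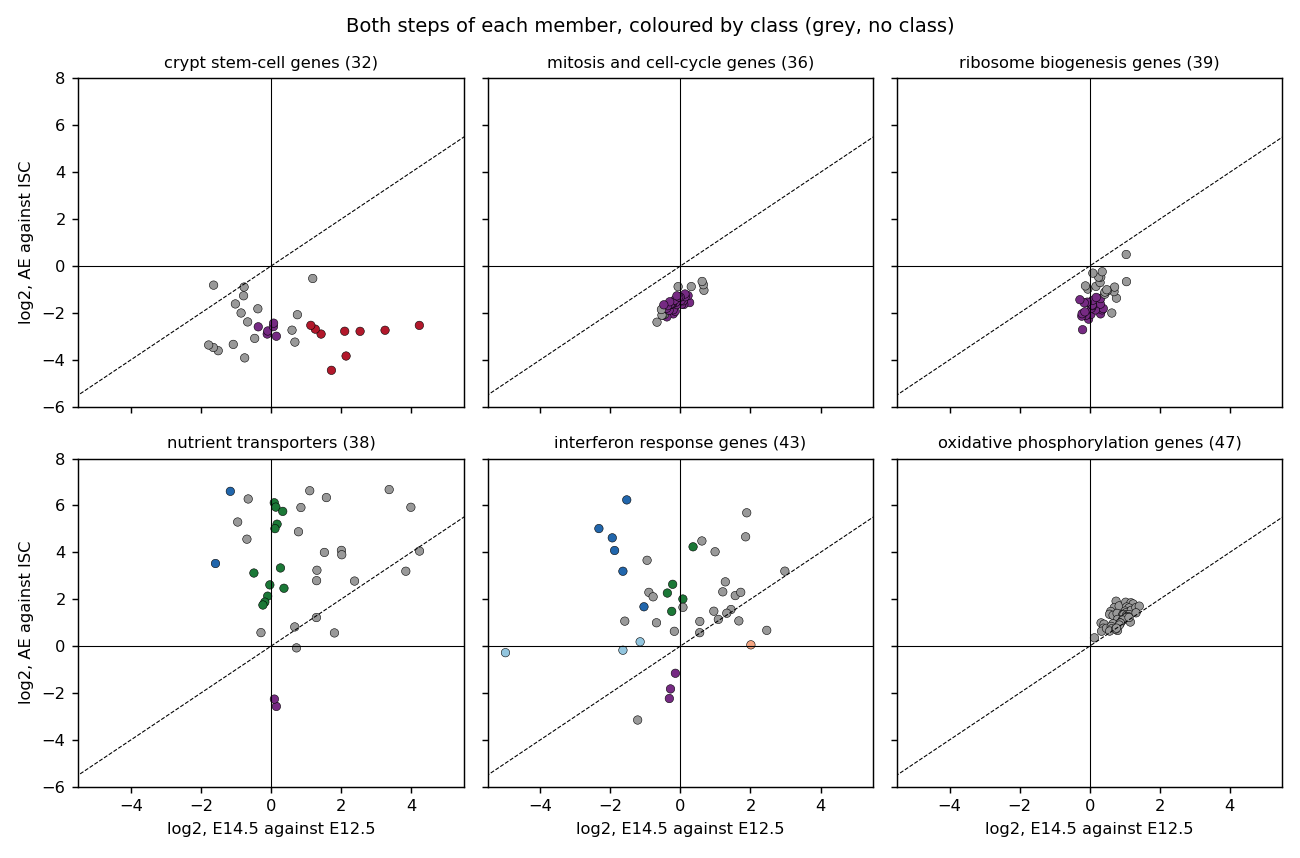
Embryonic step (x axis, log2 change) and adult step (y axis, log2 change) of each tested member of 6 gene lists, coloured by class, with grey for no class and the dashed line for equal steps. Mitosis and ribosome biogenesis genes sit near 0 on the x axis and below 0 on the y axis, stem-cell genes spread to both sides of 0 on the x axis with all 32 below 0 on the y axis, and oxidative phosphorylation genes lie along the dashed line above 0.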

How the data were processed

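RNA was read from 50000 sorted cells per library, with cDNA made from 50 ng of total RNA, per the labels' protocols. The deposited values are raw read counts per gene, 1 table per library, and the submitters' processing notes give, with no role stated, the mm9 build, HTSeq 0.6.1p1, STAR 2.3.1z13, DESeq2 1.6.3, SAMtools 1.2 and bcl2fastq 1.8.4. No source used here gives the gene annotation or whether strand was used in counting, and reads of a gene and its antisense or overlapping partner may be mixed. Rows that name no gene were left out of library sizes: reads with no feature were 33.4% to 58.1% of each table and ambiguous reads 0.531% to 1.002%. Groups came from the titles, since the age field of the embryonic libraries contradicts them.

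Counts were fitted with edgeR 4.0.16 in R 4.3.3 (TMM scaling factors 0.696 to 1.16, filterByExpr, 1 coefficient per group, quasi-likelihood F tests, Benjamini-Hochberg over all 15342 genes). CPM are counts divided by the scaled library size, fold changes use a prior count of 0.125, and intervals cover 95%. The SE after each ± is the size of the log2 change divided by the square root of the F value of its test. The intervals were built from this SE. Levels are not divided by gene length and are compared within a gene only. A floor is 3 counts over a group and covers counting error only. All libraries of a group differed by more than sampling noise, and none was merged. The fit was tested on simulated data with 1 dispersion for all genes. Of 100 genes changed 2-fold at E14.5, the difference was called for 59, and 40 were put in an embryonic one-step class. Of 100 genes changed 4-fold these were 100 and 99. There were 8 false calls over 14936 genes, so one-step classes can miss changes near the log2 limit of 1. Alternatives were DESeq2 1.42.0, limma-voom (limma 3.58.1), other scalings, no filter, other class limits, a replicate block and each library left out.

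Genes were named by rule: 6 per opposite class and up to 5 per one-step class with the largest steps among genes of at least 20 CPM in a group, up to 3 members per list, and 6 genes named in any case (Lgr5, Olfm4, Mki67, Cdx2, Hnf4a and Epcam). Further list members are named without values to show what a count holds, and were chosen after their values were seen. The classes, members and 46 gene lists were chosen with earlier results of these data known. Of 1447 list entries 1430 matched a gene of the files. Promoters came from RefSeq (GRCm38.p6). They matched 78.5% of the genes tested and under 80% of most classes, so the planned comparison of motifs between classes was void. The share of a gene's 50-base sequences that other genes hold was measured on the GENCODE transcripts, and values over 20% are given beside the gene. Clca1, Clca2 and Clca4 could not be measured. Some genes named by the rule are not reported here.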

Additional observations from a re-analysis of the deposited data

Results flagged for a closer look

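Reads listed as aligned to several places are in no comparison of the report. In units of 1000000 reads they averaged 1.99 in E12.5 and 2.14 in ISC, and the entry is 0 in each of the 6 other libraries. The first group of each step thus differs from its second group in this entry, which stands outside the gene counts. Whether multiple alignments were handled differently before counting was not tested, and the 2 steps share the split.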

How the results depend on the processing

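With no scaling factor the difference was higher in 6876 and lower in 2286 genes, the embryonic rise with adult fall held 306, adult rise only 501 and adult fall only 2349 genes, and Cdx2 had a difference of 0.15. The median difference moved by −0.11 with relative log expression scaling or DESeq2 and by 0.18 with upper-quartile scaling, and the higher share of called genes was 53.8% as reported, 75.0% with no scaling, 62.1% with upper-quartile scaling, 48.7% with relative log expression scaling and 47.7% with DESeq2. limma-voom gave 364 genes for embryonic fall only. With no minimum size of a step there were 1509 opposite and 4319 one-step genes (embryonic rise with adult fall 795, the reverse 714, embryonic rise only 477, embryonic fall only 339, adult rise only 1501, adult fall only 2002). With a log2 minimum of 2 there were 122 and 768 (40, 82, 63, 56, 369 and 280 in the same order). Tested against a log2 difference of 1 with glmTreat, 3311 genes were called. Fitted on the 6 embryonic libraries alone, the embryonic step was called for 10039 genes, against 7544 with all 12 libraries. Fitted on the 6 adult libraries alone, the adult step was called for 8864 genes, against 10397. Choices added after seeing the data were these: at least 5 CPM in each step left 183 opposite genes (92 and 91), and a flat step with its interval within 1 left 96 genes of embryonic fall only.
Leaving out each library in turn gave 6151 to 8607 genes for the embryonic step, 9869 to 10546 for the adult step and 7694 to 8944 for the difference (4158 to 4902 higher, 3536 to 4042 lower). Opposite genes numbered 490 to 566 (178 to 227 and 292 to 339) and one-step genes 2243 to 2576 (embryonic rise only 167 to 203, embryonic fall only 146 to 164, adult rise only 831 to 941, adult fall only 1043 to 1327). Without AE replicate 1, 478 of the 528 opposite and 1979 of the 2449 one-step genes kept their class. Deviations of same-numbered libraries correlated between −0.081 and 0.080, and those of differently numbered libraries between −0.112 and 0.084. Values this small do not settle whether replicate numbers pair the libraries. With the replicate block 503 opposite and 2362 one-step genes kept their class. Of 151 named genes, 14 lost their call or turned under some setting. Of 133 named genes in a class, 113 (without AE replicate 1) to 131 (relative log expression scaling) were still in it. The causes were not tested. Genes with few counts in a group limit the adult step of the opposite classes.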
